A study of Mus musculus with 2 samples.

Results

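Adrenergic receptors are the G-protein-coupled receptors of noradrenaline and adrenaline. The genes described here are the 8 with the symbols Adra1a, Adra1b, Adra1d, Adra2a, Adra2b, Adra2c, Adrb1 and Adrb3, found by symbol among 43346 gene rows, of which 21474 are protein-coding. All 8 had a row, and all 8 had at least 10 counts over both libraries, the minimum for a test. The samples are 2 libraries of cortex from C57BL/6J mice, an inbred laboratory strain, at 8 weeks of age. Per the labels, littermates of both sexes were pooled, the tissue term is cortical plate and external control RNAs went into each library. They form 1 group, biological replicates 1 and 2, with no treatment and no genetic change named. No second condition was analysed here, so the measurements are levels in this tissue and the difference between these 2 libraries.

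In the forebrain noradrenaline is released by axons whose cell bodies lie mostly in the locus coeruleus of the brainstem. The alpha1 receptors (Adra1a, Adra1b, Adra1d) couple mainly to Gq, which activates phospholipase C and raises intracellular calcium. The alpha2 receptors (Adra2a, Adra2b, Adra2c) couple mainly to Gi and Go, which inhibit adenylyl cyclase and, at nerve endings, lower transmitter release. Adrb1 and Adrb3 encode beta receptors, which couple to Gs and raise cyclic AMP.

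The 8 genes share a coding stretch at the inner end of the third membrane helix, where receptors of this class carry the residues Asp-Arg-Tyr that take part in G-protein activation. The stretch is shown because it displays which members resemble each other, a property that no expression value entered. Each line gives 60 coding bases, 5′ to 3′ on the coding strand, read from GENCODE release 21 transcripts, with the Asp-Arg-Tyr codons in capitals and the position on GRCm38.
Adra1a, chr14:66637917-66637976 (+): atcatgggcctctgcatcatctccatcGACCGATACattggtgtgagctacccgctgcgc
Adra1b, chr11:43835633-43835692 (-): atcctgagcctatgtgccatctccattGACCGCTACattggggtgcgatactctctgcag
Adra1d, chr2:131561578-131561637 (-): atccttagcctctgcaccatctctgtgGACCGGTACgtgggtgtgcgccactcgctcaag
Adra2a, chr19:54046620-54046679 (+): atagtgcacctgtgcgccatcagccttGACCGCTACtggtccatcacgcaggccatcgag
Adra2b, chr2:127363877-127363936 (+): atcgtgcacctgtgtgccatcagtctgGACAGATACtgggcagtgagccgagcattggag
Adra2c, chr5:35280300-35280359 (+): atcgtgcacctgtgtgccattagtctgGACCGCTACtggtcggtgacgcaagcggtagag
Adrb1, chr19:56722807-56722866 (+): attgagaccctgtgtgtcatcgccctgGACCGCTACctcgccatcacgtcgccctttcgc
Adrb3, chr8:27227997-27228056 (-): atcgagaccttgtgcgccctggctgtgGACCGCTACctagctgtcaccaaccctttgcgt
The middle codon of the capitals was CGC in 5 genes, CGA in Adra1a, CGG in Adra1d and AGA in Adra2b, all codons for arginine. Within a subfamily the windows shared 42 to 49 of 60 bases over 7 pairs, with a median of 44. Between subfamilies they shared 28 to 39 bases over 21 pairs, with a median of 34. The closest pair was Adra2b and Adra2c, at 49 identical bases, and Adrb1 and Adrb3 shared 42. In this cortex Adra2c was the most and Adra2b the least abundant of the alpha2 genes.

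Levels are given as TPM, an abundance relative to all transcripts of the library, which divides counts by transcript length and so can be compared between genes. Adrb1 and Adra1d led, Adra1b, Adra2c and Adra2a followed, Adra1a and Adrb3 were low, and Adra2b was close to the detection limit. Of the 8 genes, 7 reached at least 1 TPM in both libraries. The highest mean TPM was 209-fold the lowest.

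**Figure D1:**
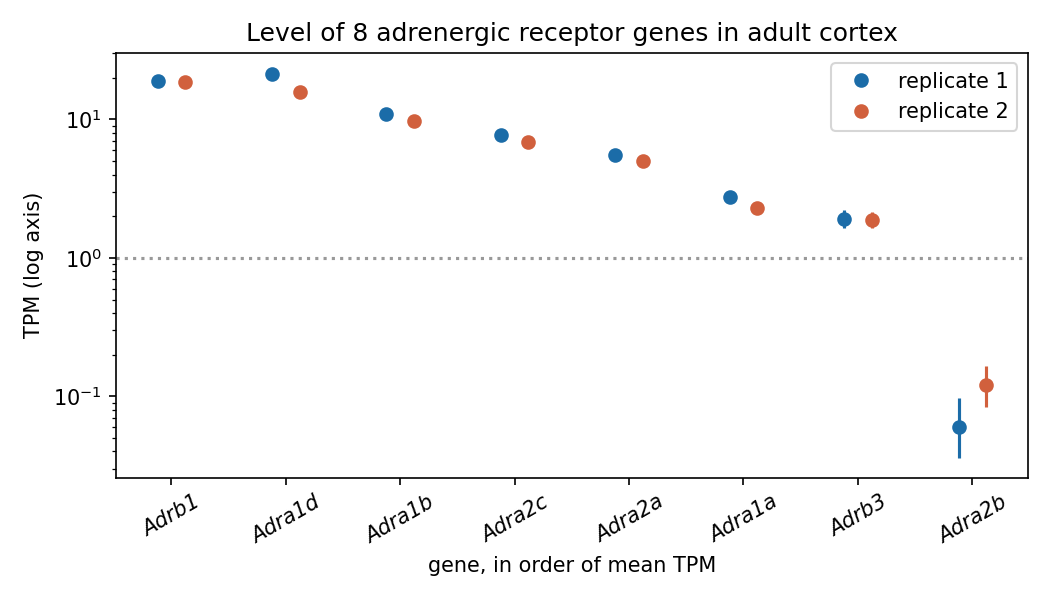
TPM (log axis) of each gene in replicate 1 and replicate 2, in order of mean TPM, with vertical lines for the deposited credible bounds and a dotted line at 1 TPM. Adrb1 and Adra1d lie between 15.8 and 21.3 TPM, and Adra2b at 0.06 and 0.12 TPM is the only gene under the dotted line.

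Among the alpha1 genes, Adra1d (ENSMUSG00000027335, chr2:131545850-131562283 on GRCm38, minus strand) encodes the alpha1D receptor. It had 21.27 TPM in replicate 1 and 15.82 in replicate 2, a mean of 18.5 ± 3.85 (SD, n = 2), from 2445 and 1987 expected counts. Replicate 1 was the higher library, and the deposited credible bounds of 20.3 to 21.9 TPM and 15.0 to 16.4 TPM did not overlap. Those of Adra1a, Adra2a and Adra2c, which did not pass the test below, did not overlap between libraries either. By TPM the median tested gene was also higher in replicate 1, at a log2 ratio of replicate 2 to replicate 1 of -0.15. Adra1b (ENSMUSG00000050541, chr11:43774606-43901210, minus strand), which encodes alpha1B, had 10.91 and 9.78 TPM, with a mean of 10.3 ± 0.799 (SD, n = 2) from 1553 and 1502 counts. Adra1a (ENSMUSG00000045875, chr14:66635251-66771168, plus strand), which encodes alpha1A, had 2.73 and 2.30 TPM, with a mean of 2.52 ± 0.304 (SD, n = 2) from 728 and 669 counts. In both libraries the order of the alpha1 genes was therefore Adra1d, Adra1b, Adra1a, without overlap.

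Among the alpha2 genes, Adra2c (ENSMUSG00000045318, chr5:35278319-35281763, plus strand) was highest. It had 7.76 and 6.89 TPM, a mean of 7.33 ± 0.615 (SD, n = 2), from 1574 and 1529 counts. Adra2a (ENSMUSG00000033717, chr19:54044151-54048982, plus strand) encodes the receptor known as the main alpha2 autoreceptor of noradrenergic neurons and the target of guanfacine. It had 5.56 and 4.97 TPM, a mean of 5.27 ± 0.417 (SD, n = 2), from 1355 and 1325 counts. Adra2b (ENSMUSG00000058620, chr2:127363208-127367221, plus strand), known for its role in blood vessels, had 0.06 and 0.12 TPM from 15 and 33 counts, a mean of 0.0900 ± 0.0424 (SD, n = 2). Replicate 2 was the higher library, and the credible bounds of 0.0356 to 0.0972 TPM and 0.0841 to 0.166 TPM overlapped.

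Adrb1 (ENSMUSG00000035283, chr19:56722199-56733113, plus strand) encodes the beta1 receptor, which is also the main beta receptor of heart muscle. It had 18.99 and 18.68 TPM, a mean of 18.8 ± 0.219 (SD, n = 2), from 2943 and 3167 counts. Adrb3 (ENSMUSG00000031489, chr8:27225776-27250616, minus strand) encodes the beta3 receptor, best known for driving lipolysis in fat. It had 1.91 and 1.89 TPM, a mean of 1.90 ± 0.0141 (SD, n = 2), from 231 and 253 counts. For both genes the libraries lay within each other's credible bounds.

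Set against all protein-coding rows, Adrb1 stood at the 73.8th and 75.6th percentile of TPM in replicates 1 and 2. Adra1d stood at the 76.0th and 72.3rd percentile, and Adra2b at the 25.7th and 28.9th. The median tested gene of any type had a mean of 6.14 TPM, which lies between Adra2c and Adra2a.

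Of the 7 neighbouring pairs in the order of mean TPM, 6 did not overlap between libraries and kept their order in each. The exception was Adrb1 and Adra1d, whose means differed by a factor of 1.02 and whose order changed between libraries. The largest step was between Adrb3 and Adra2b, at 21.1-fold in mean TPM. Of the steps that held in both libraries, that between Adra1a and Adrb3 was smallest by the ratio of means, at 1.32, with 1.43 in replicate 1 and 1.22 in replicate 2.

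By subfamily, the alpha1 genes summed to 34.9 TPM in replicate 1 and 27.9 in replicate 2, which was 50.5% and 46.2% of the summed TPM of the 8 genes. The alpha2 genes summed to 13.4 and 11.98 TPM, or 19.3% and 19.8%. Adrb1 and Adrb3 summed to 20.9 and 20.6 TPM, or 30.2% and 34.0%. The alpha1 sum moved most between libraries, most of it in Adra1d. In bulk tissue, fewer expressing cells and less RNA per cell cannot be told apart, and this holds for every level and difference given here.

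The authors' older table on mm9, in RPKM, gave the same order of the 8 genes by the mean of its pair of columns. Adra1d had 3.08 and 2.19 there and Adrb1 2.89 and 2.92, so that their order differed between columns. Adra1b had 1.611 and 1.503 RPKM, and Adra2b 0.00955 and 0.0180. Which of these columns belongs to which replicate is not stated. The leading pair was thus not separated in either annotation.

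The difference between the libraries was tested for each gene by an exact binomial test, two-sided, on counts scaled by TMM, which sets the bulk of genes equal, with Benjamini-Hochberg adjustment over 19829 genes and a threshold of 0.05. Of the 8 receptor genes, 2 were higher in replicate 2, where the background was 14.8% of all tested genes, and 1 was lower, where it was 14.0%. The other 5 did not pass. In either direction 28.7% of all genes passed, so 3 of 8 is near the background. The median log2 ratio was -0.0086 over the 8 genes and 0.0029 over all tested genes.

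Adra1d was 1.21-fold (95% Clopper-Pearson interval 1.14 to 1.28) higher in replicate 1 (exact binomial test, Benjamini-Hochberg adjusted p = 8.0e-09). Adrb1 was 1.10-fold (1.04 to 1.15) higher in replicate 2 by the same exact test (adjusted p = 0.0018). Adra2b was 2.24-fold (1.19 to 4.45) higher in replicate 2 by the same exact test (adjusted p = 0.034). Adra1d thus had the smallest adjusted p of the 8, and the Adra2b call rested on 15 and 33 counts. The test compares these libraries and covers counting error only. With the variation between libraries estimated over all genes, edgeR's exact test with a common dispersion called 1.31% of genes and 0 of the 8. By that test Adra2b had an unadjusted p of 0.023. The dispersion came from these same 2 libraries, so the differences under test are themselves part of it.

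**Figure D2:**
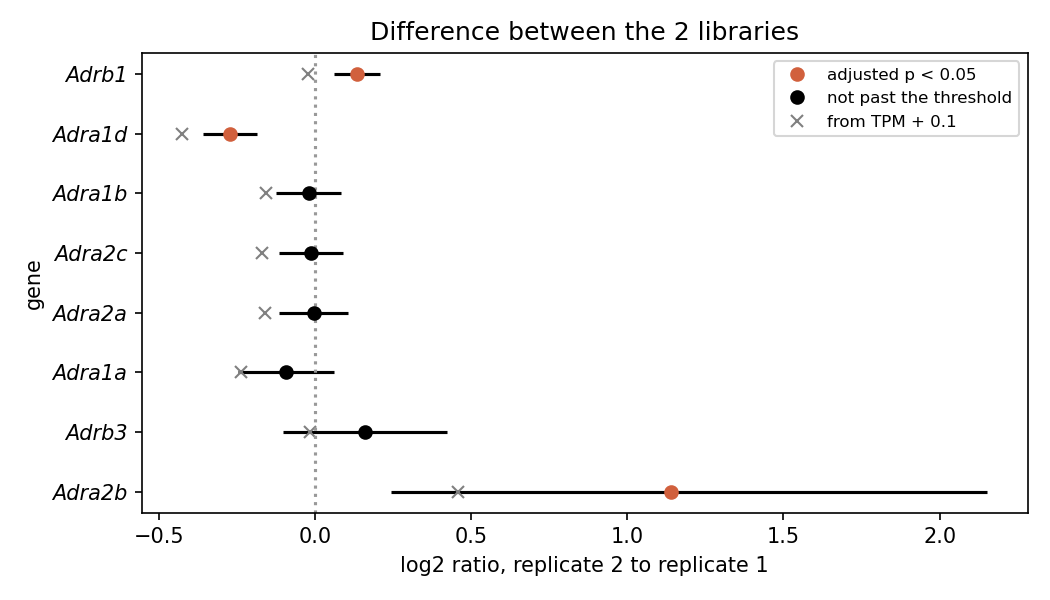
Log2 ratio of replicate 2 to replicate 1 for each gene after TMM scaling (dots, with 95% counting intervals as lines) and from TPM + 0.1 (crosses). Orange dots mark the 3 genes past the threshold; the cross of Adrb1 lies left of 0 while its dot lies right of it.

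The log2 ratios of the 5 genes that did not pass were -0.093 for Adra1a, -0.020 for Adra1b, -0.013 for Adra2c, -0.0039 for Adra2a and 0.16 for Adrb3. The intervals of the ratio were 0.843 to 1.04 for Adra1a and 0.924 to 1.08 for Adra2a, so larger differences than these lay outside the counting error of those genes. Adrb3 had the wider interval, 0.931 to 1.34. On ratios from TPM + 0.1 and after scaling to the control RNAs, the median over all tested genes shifted to -0.15. The log2 ratio of Adrb1 then fell below 0, to -0.024 and -0.019. Relative to those medians it stayed higher in replicate 2, by 0.13 on either scale. Adrb3, which did not pass, had -0.014 from TPM + 0.1 and 0.0062 after scaling to the control RNAs.

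Markers of neighbouring tissue also differed between the libraries. For the counts that follow, the background by the exact binomial test was 14.8% of all tested genes higher in replicate 2 and 14.0% lower. All 10 genes of a striatum list were higher in replicate 2, with a summed level of 148 TPM in replicate 1 and 438 in replicate 2. All 6 oligodendrocyte genes were higher in replicate 2 (3491 and 4253 TPM summed), and 5 of 6 hippocampus genes were lower (82.4 and 58.3 TPM summed). By edgeR's exact test, 10 striatum, 3 hippocampus and 0 oligodendrocyte genes passed. Drd2, a dopamine receptor of striatal neurons, had 0.8 and 12.5 TPM, and no gene of these 3 lists was at 0. The part of these tissues in the Adra1d, Adrb1 and Adra2b differences was not tested. Of the other lists, 1 of 6 mural and smooth muscle genes rose and 1 fell in replicate 2 (47.3 and 43.8 TPM summed), 1 of 6 endothelial genes rose and 1 fell, 3 of 6 meningeal and 1 of 6 thalamic genes rose, and 4 of 6 astrocyte genes rose and 1 fell on the TMM scale. With plain totals 2 astrocyte genes passed, not 5, and their median log2 ratio from TPM was -0.10 (1297 and 1198 TPM summed). From TPM the median over all tested genes was -0.15. A lower TPM sum in replicate 2 is therefore not by itself a fall relative to other genes. Neurons (3 of 6 higher, 2 lower) and microglia (3 of 6 lower) had summed levels of 3103 and 2797 TPM and of 207 and 176 TPM. The excitatory neuron marker Slc17a7 had 572 and 479 TPM.

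Adrb3 was read beside markers of fat, the tissue it is best known from. Of 6 adipocyte genes, Lep was at 0 in both libraries and Adipoq had 0.01 and 0.07 TPM, and the list summed to 2.55 and 1.58 TPM, most of it Cidea at 2.21 and 1.41. Of the 3 fat genes that could be tested, 2 were lower in replicate 2, where 14.0% of all tested genes were. The part of fat in the level of Adrb3 was not tested.

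Markers of noradrenergic cell bodies summed to 1.15 and 1.13 TPM over 6 genes. Most of it was Th, which encodes tyrosine hydroxylase, at 0.93 and 0.91 TPM from 103 and 109 counts, and the transcription factor gene Phox2a was listed at 0 TPM. Of the 7 genes of noradrenaline synthesis, storage and release, 6 could be tested. By the exact binomial test 0 passed, where 28.7% of all tested genes did. By edgeR's exact test 0 passed as well, where 1.31% of all tested genes did. At an unadjusted p under 0.05, 1 passed by the binomial test (Pnmt, named after its value was seen) and 0 by edgeR's. Cyb561, a cytochrome of secretory vesicles found in many cells, had 34.8 ± 2.28 TPM, and Ddc, which makes dopamine, 3.93 ± 0.382 (SD, n = 2). Slc6a2, the noradrenaline transporter, was lowest at 0.01 and 0.02 TPM from 3 and 6 counts. Dbh, which turns dopamine into noradrenaline, had 19 and 27 counts.

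For uptake and breakdown, 3 of 8 genes were higher in replicate 2 and 1 was lower, where 14.8% and 14.0% of all tested genes were. Akr1a1, an aldehyde reductase, led at 277 ± 9.95 TPM (SD, n = 2). Slc22a2, an organic cation transporter, was lowest by mean, at 0.63 and 0.49 TPM. Slc22a3, another low-affinity transporter of monoamines, had 0.51 and 0.75 TPM, below Slc22a2 in replicate 1 and above it in replicate 2, and from 115 and 184 counts was 1.63-fold higher in replicate 2.

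The leading gene of each G protein list stood above every receptor gene in TPM. Gnas, which encodes the stimulatory Gs subunit used by beta receptors, had 1128 ± 112 TPM, and Gnal, its relative in striatum and olfactory neurons, 35.4 ± 4.16 (SD, n = 2). Gnal was 1.32-fold higher in replicate 2 and Gnas was lower, so both Gs genes passed in opposite directions. Gnao1 led the Gi and Go list at 224 ± 2.03 TPM, Gnai2 had 149 ± 10.5, and Gnai3 was lowest at 13.5 ± 0.191 (SD, n = 2). In that list 3 of 5 genes were higher in replicate 2 and none lower, Gnao1 by a log2 ratio of 0.14. Gna11 led the Gq list at 78.5 ± 8.46 TPM, followed by Gnaq at 32.1 ± 3.90, while Gna14 had 0.0850 ± 0.00707 TPM (SD, n = 2). In the Gq list 2 of 4 genes were lower in replicate 2, Gnaq by -0.084, and none were higher. For all these G protein counts the background was 14.8% of all tested genes higher in replicate 2 and 14.0% lower. By edgeR's exact test no gene of these lists passed.

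Downstream of Gq, 3 of 11 genes were higher and 4 lower in replicate 2, where 14.8% and 14.0% of all tested genes were. The protein kinase C gene Prkcb led this list at 172 ± 8.65 TPM (SD, n = 2). Itpr3, an IP3 receptor, was lowest at 1.31 and 1.18 TPM, and Prkce had the largest called log2 ratio, at -0.16. Downstream of Gs and Gi, 6 of 19 genes were higher and 8 lower. The protein kinase A subunit genes Prkar1b, at 459 ± 46.6 TPM, and Prkar1a, at 219 ± 19.8 (SD, n = 2), led, and the adenylyl cyclase gene Adcy7 was lowest at 1.85 and 1.46 TPM. Adcy5, the main adenylyl cyclase of striatum, was 1.79-fold higher in replicate 2, with 28.6 and 45.9 TPM. It was the only gene of the 8 pathway lists that edgeR's exact test also called. Among regulators of the receptors, 3 of 16 were higher and 5 lower. Rgs4, which shortens signalling by Gq and Gi, led at 208 ± 1.05 TPM, followed by Ppp1r9b at 159 ± 26.98, while the receptor kinase gene Grk4 was lowest at 1.88 ± 0.191 (SD, n = 2). Rgs2 had the largest log2 ratio there, at 0.21. Over the 8 lists, 19 of 71 tested genes were higher and 21 lower (56.3%, where 28.7% of all tested genes passed), with a median log2 ratio of 0.0036. The exact test calls smaller ratios in genes with more counts.

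The genes closest to each subfamily's most abundant member in TPM over both libraries were named as a description of level only. They were BC030499, Zfpm1 and Cep131 for Adra1d, As3mt, Zfp169 and Gm5148 for Adra2c, and Chrac1, Tcirg1 and Mcee for Adrb1. Their distances on the log2(TPM + 0.1) scale were 0.0045 to 0.030 over 2 libraries. Within a distance of 0.1 lay 29 protein-coding genes for Adra1d, 190 for Adra2c and 140 for Adrb1.

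Transcript models differed in kind between the genes. In the annotation used for the counts, GENCODE release 4, Adra1d, Adra2a, Adra2c and Adrb1 had 1 model each, Adra2b had 2, Adrb3 3, Adra1b 4 and Adra1a 5. Adra2a, Adra2b, Adra2c and Adrb1 have no intron in these models, so their reads could not be checked by splicing against that annotation. The deposited tables divide each gene's TPM among its models, and the mm9 junction table, which lists junctions from 1 read upward in a pair of columns, gives a separate look at the same RNA. The junction reads are given as the sum of both columns.

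**Figure D3:**
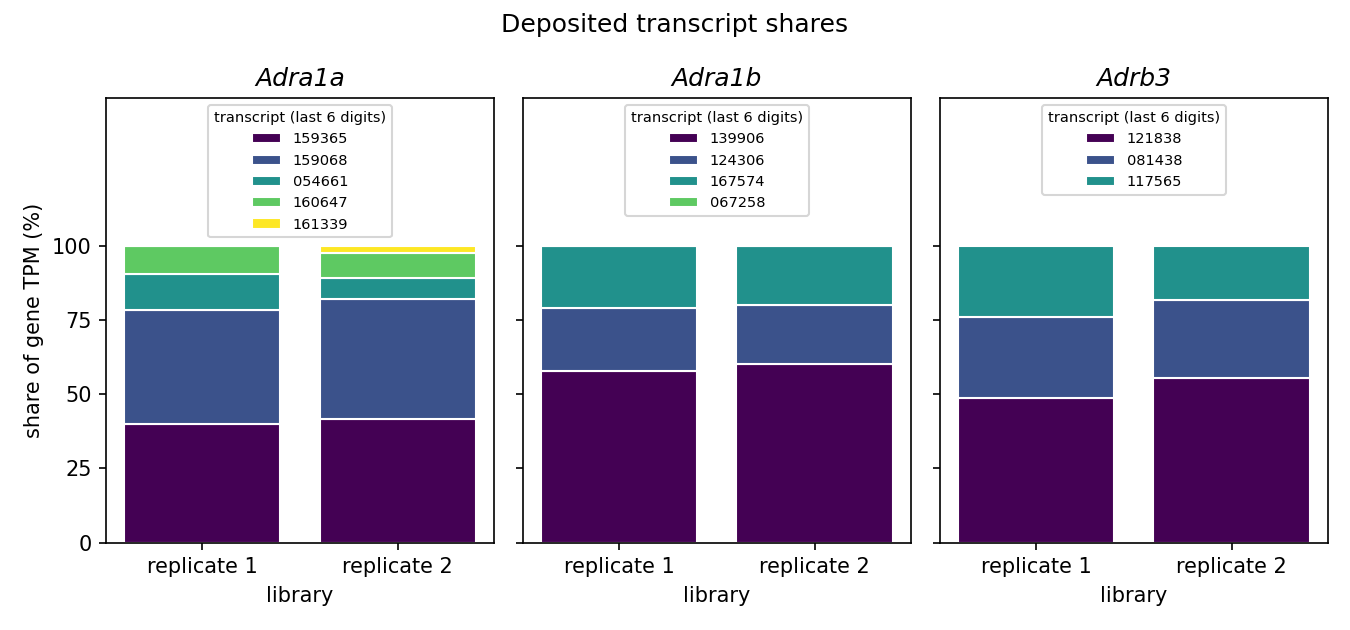
Share of gene TPM (%) that the deposited tables give each transcript model of Adra1a, Adra1b and Adrb3 in replicates 1 and 2. The leading model of each gene holds 40.0% to 60.1% in each library, and ENSMUST00000054661 and ENSMUST00000160647 of Adra1a change places between the libraries.

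Adra1b had most of its TPM assigned to a model whose own introns had almost no junction reads. The model ENSMUST00000139906, whose first exon lies far upstream, was given 58.0% of gene TPM in replicate 1 and 60.1% in replicate 2. Models ENSMUST00000124306 and ENSMUST00000167574, which have the same exons and start next to the coding sequence, together had 42.0% and 39.9%. The junction between the coding exons (mm9 chr11:43589962-43648641), which all models share, had 321 reads, 168 and 153 by column. The junction to the far first exon (intron of 64233 nt) had 1 read, and the 511 nt intron that joins it to the coding exon was not listed. Model ENSMUST00000139906 needs both of these introns. The contig over the coding exon, a stretch of joined signal on mm9, reached 528 nt beyond the 5′ end of the near models. It ended 64350 nt short of the far one, at position 43650362, where the intron of 64233 nt begins (43650363). RNA spliced over that intron would leave no signal in it, so the contig's end cannot tell which start was used. On the gene's strand 2 contigs touched annotated exons, this one and the one over the 3′ end. No contig touched the far first exon. The contig over the coding exon also ran unbroken through the 511 nt intron, which the far model removes. Which start was used was not tested. The far model is also the shortest, at 1764 nt against 3047 nt, and its part in the shares was not tested.

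The start windows of Adra1b are shown because the junction reads bear on which start is used. RefSeq lists a pair of Adra1b starts on GRCm38.p6, 1 lying 157 nt upstream of the near models and the other 27 nt upstream of the far ones. The 250 bases before each start follow, on the coding strand, with capitals for the GC box letters GGGCGG or their reverse complement CCGCCC.
Adra1b near start, chr11:43836490-43836739 (-): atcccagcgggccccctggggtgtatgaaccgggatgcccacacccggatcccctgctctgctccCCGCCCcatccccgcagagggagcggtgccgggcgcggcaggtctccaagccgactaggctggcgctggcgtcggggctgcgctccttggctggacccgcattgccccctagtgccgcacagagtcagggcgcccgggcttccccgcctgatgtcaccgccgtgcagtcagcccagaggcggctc
Adra1b far start, chr11:43901238-43901487 (-): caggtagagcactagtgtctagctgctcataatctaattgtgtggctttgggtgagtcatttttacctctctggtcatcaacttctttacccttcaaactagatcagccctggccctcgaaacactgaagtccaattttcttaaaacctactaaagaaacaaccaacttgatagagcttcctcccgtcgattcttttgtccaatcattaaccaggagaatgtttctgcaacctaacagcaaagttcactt
The near window had 72.8% G and C with 22 CpG dinucleotides, and the far window 41.6% with 3. Counted with the 50 bases after the start, the near window lay at the 92.2nd percentile of G and C among 32851 RefSeq windows of 300 bases and the far window at the 14.9th. Of the 6 windows listed for members (Adra1b, Adra2a, Adra2b, Adra2c and Adrb1), 4 held GGGCGG on either strand, against 35.7% of all windows. TATAAA on either strand was found in 1, that of Adra2a, against 13.6% of all windows. G and C made up 68.0% to 72.3% in the windows of Adra2a, Adra2b, Adrb1 and the near start of Adra1b, and 51.3% in that of Adra2c, where the median of all windows was 52.7%. Adra1a, Adra1d and Adrb3 have no entry in the table.

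**Figure D4:**
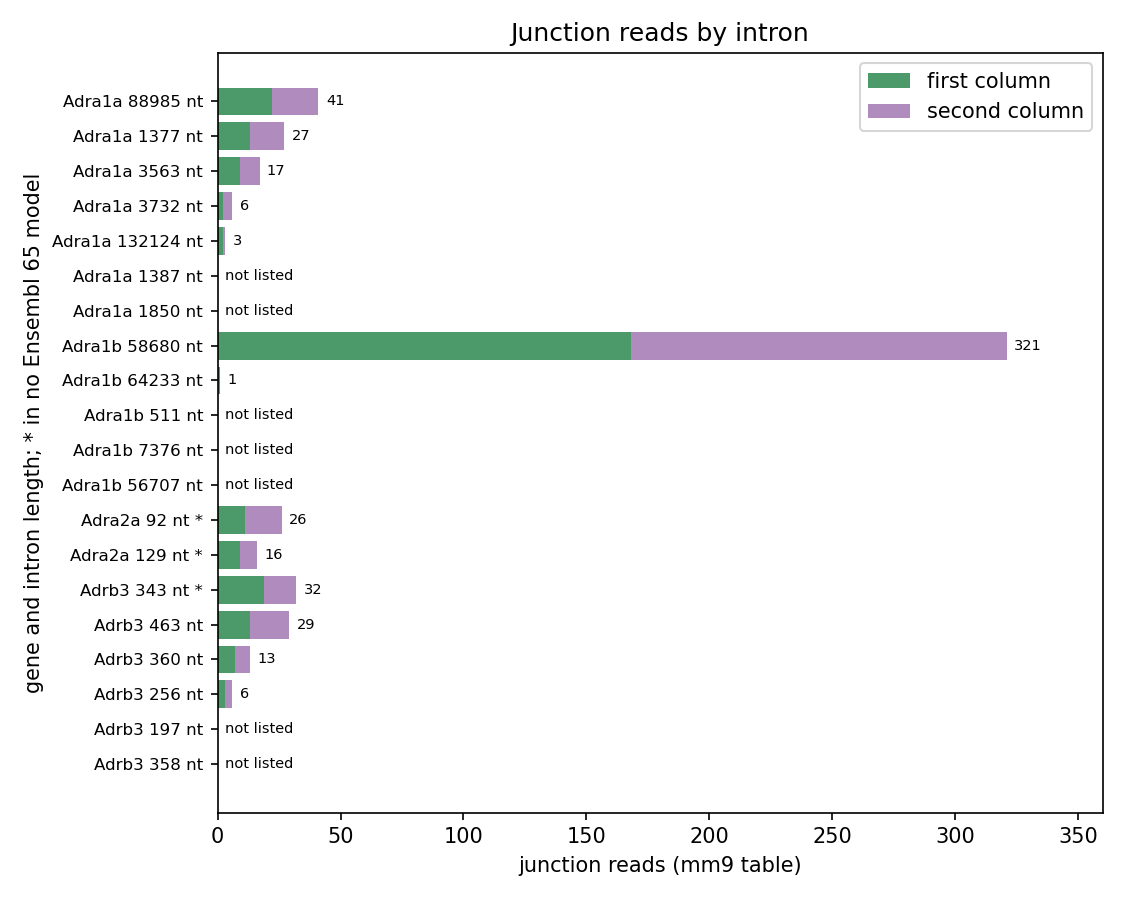
Junction reads in the mm9 table, stacked by its pair of columns, for introns of Adra1a, Adra1b, Adra2a and Adrb3 that are annotated or have at least 3 reads; a star marks introns in no Ensembl 65 model. The shared coding junction of Adra1b has 321 reads and its far-start junction 1, and the top bar of Adrb3 is an unannotated intron with 32.

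Adra1a was divided among more models. Model ENSMUST00000159365 had 40.0% and 41.6% of gene TPM, ENSMUST00000159068 38.4% and 40.7%, ENSMUST00000054661 12.1% and 7.17%, and the retained-intron model ENSMUST00000160647 9.49% and 8.28%. The junction over the 88985 nt intron that separates the main coding exons had 41 reads, and 3 reads joined the same donor to an exon 132124 nt away. At the last intron, the splice site of ENSMUST00000159365 (intron of 3732 nt) had 6 of 23 reads, 26.1% (Wilson interval 12.5% to 46.5%). The other site (3563 nt), of ENSMUST00000054661 and ENSMUST00000161339, had 17 reads. By deposited TPM ENSMUST00000159365 had 76.7% and 81.5% of the sum of these 3 models, so the shares and the junction reads ordered the sites in opposite ways. The counting interval does not reach the deposited share in either library.

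Adrb3 had junction reads at a pair of splice site choices. Model ENSMUST00000121838 had 49.0% and 55.5% of gene TPM, ENSMUST00000081438 27.1% and 26.4%, and ENSMUST00000117565 24.0% and 18.1%. At the first choice of splice site, the 463 nt intron of ENSMUST00000081438 and ENSMUST00000121838 had 29 of 42 reads, 69.0% (Wilson interval 54.0% to 80.9%), and the 360 nt intron of ENSMUST00000117565 had 13. The deposited share of ENSMUST00000117565 lay inside the interval of its junction share (19.1% to 46.0%) in replicate 1 and below it in replicate 2. At the second choice, the largest junction, with 32 reads (19 and 13 by column), spanned a 343 nt intron (mm9 chr8:28336855-28337197) that is in no Ensembl 65 model and not in a model of release 21. The 256 nt intron of the leading model had 6 of 38 reads at that site, 15.8% (7.44% to 30.4%), and the introns that ENSMUST00000081438 has and ENSMUST00000121838 lacks, of 197 nt and 358 nt, were not listed. The contigs of Adrb3 ended 12 nt past its annotated 3′ end.

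Adra2a, which had no intron in release 4, had 2 unannotated junctions that share an end, with 26 reads over 92 nt and 16 reads over 129 nt. Each was seen in both columns (11 and 15 reads, and 9 and 7). Release 21 adds an Adra2a model with 1 intron of 129 nt, and holds none of 92 nt. Adra1d had 539 reads, 296 and 243 by column, over the 14535 nt intron that separates its coding exons. Its largest other junction had 3 reads, and no junction of Adra2c or Adrb1 had more than 2. Adra2b had no listed junction and was split by model only in the posterior values, which gave its leading model 54.3% where the deposited share was 100%.

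Contigs reached past the annotated 3′ ends of several members. A contig covered the annotated 3′ end in 7 of 8 genes, and in 3 of them it went on for more than 1000 nt. The reach was 5653 nt for Adra1d (mm9 chr2:131365933-131372651, signal 3.23), 4495 nt for Adrb1 (mm9 chr19:56795622-56803847, signal 3.67) and 1689 nt for Adra2c (mm9 chr5:35621731-35626099, signal 3.12). No other gene of the same strand in the mm9 table overlapped these contigs. Adra1a has a last annotated exon far downstream, but its strongest contig (mm9 chr14:67346082-67358967, signal 1.69) also ran 6668 nt past the end of its leading model ENSMUST00000159365. For Adra1d the contig beyond the end was longer than the whole model, which has 1899 nt. Reads outside a model are not in its counts, and release 21 has longer models for 3 of 18 transcripts, those of Adra2a (4832 nt, before 3801), Adra2c (3445, before 3196) and Adrb1 (2952, before 2491).

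**Figure D5:**
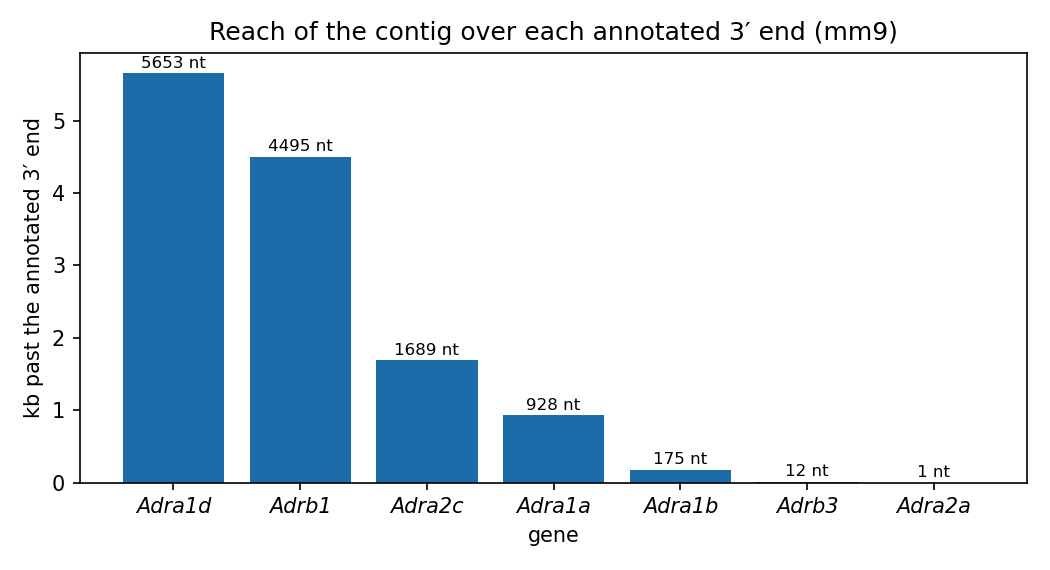
Distance (kb) by which the mm9 contig over each annotated 3′ end runs past that end, with the value in nt above each bar. Measured at the gene's outermost end, Adra1d, Adrb1 and Adra2c exceed 1 kb, and Adra1a, Adra1b, Adrb3 and Adra2a lie between 928 and 1 nt.

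Adra2b had no contig over its 3′ end. It had 6 contigs on its strand, and the strongest had a signal of 0.105, where the strongest exon contigs of the other genes had 1.01 for Adrb3 to 3.67 for Adrb1. Signal on the opposite strand was listed at 7 of the 8 genes. It was strongest at Adra1d, at 0.843, and at Adrb3, at 0.563 against 1.01 on the gene's own strand. Within the long introns of Adra1a and Adra1b, 68 and 63 further contigs on the same strand had median signals of 0.068 and 0.077, against 1.69 and 2.95 for the strongest exon contig.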

How the data were processed

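Polyadenylated RNA longer than 200 nt was sequenced as stranded paired reads of 101 nt in 2 libraries, per the labels. The authors deposited expected counts (estimated, so not whole), TPM and FPKM per gene, with credible bounds of TPM whose level is not stated, and transcript shares as a percent of gene TPM, all on mm10 with release 4 of the GENCODE annotation, per the file headers. Deposited mm9 tables (Ensembl release 65) give RPKM, junction read counts and contig signal. The program behind each is not given in the sources used here. Gene names and positions came from GENCODE release 21, which named 98.0% of rows. Totals were 91875460 and 92939474 expected counts. In TPM, mt-Atp8 held 19.0% and 21.9%, which scales all other values.

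Expected counts were rounded, scaled by TMM (edgeR 4.0.16, R 4.3.3) and compared by an exact two-sided binomial test (scipy 1.17.1) for genes with at least 10 counts; log2 ratios added 0.5 counts. The test was checked on counts simulated with counting error only, so the check does not cover variation between libraries. Nothing says whether the replicates share a litter or RNA. The binomial p-values set the difference between these 2 libraries against counting error and do not measure the spread between replicates. The intervals treat reads as independent counts, so they cover counting error only. Reads carried no molecular identifiers to tell copies of 1 molecule apart. Alternatives were DESeq2 1.42.0 size factors, plain and control RNA totals, other count minimums, edgeR's exact test, TPM ratios, FPKM and mm9 RPKM. Named were all 8 genes, and from each pathway list the 2 most abundant, the least abundant and the called gene with the largest ratio, plus markers needed for a range and those at 0. Some genes that this rule names are not reported here. The 3 genes nearest in TPM were named for each subfamily's leading gene. The members and gene lists were chosen with earlier results of these data known. A planned comparison of protein sequences was not run, since no protein table was used here, and a coding stretch took its place; it was added after the files were seen. Promoter sequences are RefSeq's.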

Additional observations from a re-analysis of the deposited data

How the results depend on the processing

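Of 138 alternative values for 39 results, 111 changed little. These were levels and shares within the replicate spread, equal ranks, and counts within 1.5 times the one in the text. Tested ratios had to keep their sign and their side of the threshold. TPM ratios, which were not tested, had to keep their sign and lie near the ratio in the text. By that rule Adra1d, at -0.42 from TPM + 0.1 against -0.27, counted as little changed. The 111 include levels and transcript shares with 1 of the 2 libraries left out. Such values always lie within the SD, so they could not have come out otherwise. Among the counts, plain totals called 5 uptake and breakdown genes in place of 4 and 10 regulators in place of 8, and 6 members reached 2 TPM where 7 reached 1 TPM. The log2 ratio of Adrb1 reversed to -0.019 with control RNA totals, to -0.024 as a ratio of TPM + 0.1 and to -0.023 from posterior mean TPM; these alternatives also shift the median of all genes. Adrb3, not called, also changed sign, from 0.16 to -0.014 by both TPM ratios. Genes higher in replicate 2 numbered 0 with control RNA totals, 1 with a minimum of 50 counts (Adra2b then has too few counts to be tested) and 0 with edgeR's exact test, against 2 in the text. Genes lower numbered 5 with control RNA totals and 0 with edgeR's exact test, against 1. With control RNA totals the median log2 ratio over all tested genes was -0.15. Of those 5 genes, Adra1b, Adra2a and Adra2c had -0.023, -0.0068 and -0.016 relative to that median. The share of all genes called with those totals is not given here, so the 5 cannot be set against a background. Mean FPKM in place of TPM was 14.5 for Adrb1, 14.2 for Adra1d, 7.93 for Adra1b, 5.62 for Adra2c, 4.04 for Adra2a, 1.93 for Adra1a and 1.46 for Adrb3, in the order given by TPM. By counts without division by length, Adra2c took rank 3 and Adra1b rank 4. The posterior share of the leading Adra2b model was 54.3%, where the deposited share was 100%. Levels with either library left out were the single library's values, with 2.30 to 2.73 TPM for Adra1a and 15.8 to 21.3 for Adra1d. No paired analysis was possible because the series has 1 group. Adra2b, with 15 and 33 counts, is the member that depth limits most.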
